A study of Homo sapiens with 2 samples.

Results

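Amino acid transporters are described here by their RNA levels in H1993, an established human lung cancer cell line with extra copies of MET, which encodes a receptor tyrosine kinase, and in a derivative of that line resistant to the MET kinase inhibitor PHA665752. The genes were chosen by symbol: every numbered gene of the SLC1A, SLC7A, SLC36A, SLC38A and SLC43A families, with SLC3A1, SLC6A6, SLC6A9 and SLC6A14, and without SLC7A11. This gave 41 of the 18944 genes in the deposited count table. The parental library is labelled H1993 with DMSO as its treatment. The resistant library is labelled with PHA665752. Per the labels, that derivative was selected with the drug raised from 1 nM to 1 µM, was maintained at 1 µM, and spent 1 week without drug before experiments. Whether the drug was in the medium at RNA extraction, and whether the derivative was 1 clone or a pool, is not given in the sources used here. Selected resistance, drug exposure and time in culture cannot be told apart with 1 library per group. Both cultures were grown in RPMI medium with 10% fetal bovine serum.

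Amino acids cross membranes mainly through carrier proteins, and most of the carriers belong to a few solute carrier families. Some use the sodium gradient to bring amino acids in, some are driven by protons, and some are exchangers that trade an intracellular amino acid for an extracellular one. A group of SLC7 exchangers, the light chains, reach the cell surface together with a glycoprotein heavy chain from the SLC3 family. A disulfide bridge links the chains. In tumour cells the glutamine carrier SLC1A5 and the leucine exchanger SLC7A5 are the best known members, because glutamine feeds biosynthesis and leucine signals to the growth kinase complex mTORC1 at the lysosome.

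Each group had 1 library (16723181 counts for the parental line, 17086748 for the derivative), so no difference has a replicate check and no p-value is given. Levels are CPM, the counts scaled to a common library total, on library sizes scaled by the trimmed mean of M-values. Log2 ratios set the resistant over the parental level after adding 0.5 to every count. The exact 95% interval of each ratio covers counting error only, and reads without molecular identifiers are not independent molecules. A gene was tested when it reached 1 CPM in at least 1 library, and was called higher or lower when it differed at least 2-fold and the interval excluded equality. MET itself fell short of the rule, at 4859 CPM before and 3054 CPM after selection. The epithelial markers EPCAM, KRT8, KRT18, KRT19, CDH1 and CLDN4 were all tested and summed to 6350 and 6854 CPM. KRT8 (log2 ratio 0.35) and KRT18 (0.33) had ratios above 0, EPCAM was lower (-1.25), and CLDN4 (-0.87), CDH1 (-0.69) and KRT19 (-0.63) had ratios below 0. Of 5 lung adenocarcinoma markers only NKX2-1 was tested, at 4.16 and 5.95 CPM, and NAPSA had 0 counts in both libraries. Fibroblast, leukocyte and endothelial markers summed to 20.7, 87.5 and 0.356 CPM in the parental library, against 14.6, 32.5 and 29.2 CPM in the resistant library. Nearly all of these sums came from COL1A1 (348 and 242 counts), from CD68 (1447 and 537 counts, called lower) and, in the resistant library, from CDH5 at 29.2 CPM. PTPRC was also called lower, at 21 and 7 counts, and DCN, CD3E and KDR had 0 counts in both libraries. The part of these markers in the results below was not tested. In bulk RNA a change in the number of cells that express a gene and a change in RNA per cell cannot be told apart.

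Of the 41 transporter genes, 7 were higher and 1 was lower in the resistant library, 15 were tested and passed neither way, and 18 were not tested. The higher genes were SLC1A3, SLC1A5, SLC6A6, SLC6A9, SLC7A6, SLC7A7 and SLC36A1, and the lower gene was SLC1A7. Among all 12245 tested genes 12.1% were called higher and 8.29% lower. The 23 tested transporters had 30.4% called higher and 4.35% called lower. Their log2 ratios had a median of 0.50 (quartiles 0.02 and 1.33), against a median of 0.00 (quartiles -0.39 and 0.43) over all tested genes. The whole interval lay above 0 for 15 of the 23 and below 0 for 4, where 36.7% and 37.4% of all tested genes did so. Of the 23, 4 reached 1 CPM in only 1 library: SLC1A3 and SLC7A7 through the resistant and SLC1A7 and SLC6A14 through the parental one. For these the filter fixed the direction. Among the 18 transporters with a mean of at least 5 CPM, a limit set after the values were seen, 5 were higher and 0 lower, beside 8.13% higher and 6.44% lower of all genes at that limit.

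**Figure D1:**
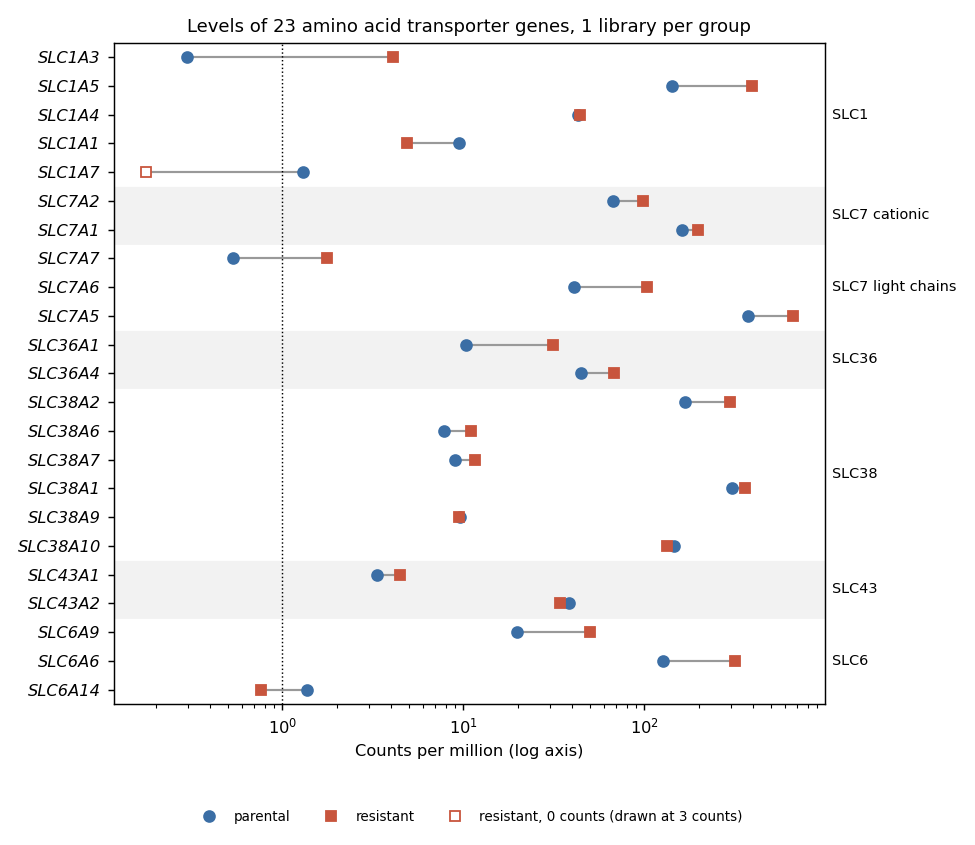
Levels of the 23 tested transporter genes in CPM on a log axis, grouped by family, with circles for the parental and squares for the resistant library and a dotted line at 1 CPM. SLC1A5 moves from 142 to 395 CPM and SLC6A6 from 127 to 318 CPM, while SLC38A9 and SLC1A4 have nearly coinciding points; the open square marks SLC1A7, which had 0 counts in the resistant library.

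The SLC1 family holds sodium-coupled carriers of glutamate and aspartate and a pair of neutral amino acid exchangers. SLC1A5, the exchanger that brings glutamine into many tumour cells, rose from 2385 parental to 6703 resistant counts, or 142 to 395 CPM. It was 2.79-fold higher (interval 2.66 to 2.92). Its closest relative SLC1A4, which carries serine, alanine and cysteine, had 721 and 749 counts and a log2 ratio of 0.04 (interval -0.11 to 0.19). The neutral exchangers therefore stood 1.48 and 0.04 apart from their parental levels on the log2 scale, and only the glutamine carrier passed the rule.

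The glutamate carriers of this family were scarce and went in both directions. SLC1A3, best known as the glutamate carrier of astrocytes, had 5 parental and 69 resistant counts and was 13.7-fold higher (5.59 to 43.5), reaching 4.06 CPM. SLC1A1, the glutamate, aspartate and cysteine carrier of epithelia and neurons, went the other way, from 160 to 83 counts. It was 1.94-fold lower (1.48 to 2.56), just short of the rule at a log2 ratio of -0.95. SLC1A7, a glutamate carrier known from the retina, had 22 parental and 0 resistant counts. A count of 0 allows up to 3 counts, so it was at least 7.39-fold lower, while the near end of its exact interval was a log2 ratio of -2.47. SLC1A2 had 1 and 2 counts and SLC1A6 had 0 in both.

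Of the SLC7 light chains, 2 were higher and all 3 tested ones had intervals above 0. SLC7A5, the exchanger that takes in leucine and other large neutral amino acids, went from 6317 to 11218 counts, or 375 to 661 CPM. It was 1.76-fold higher (1.71 to 1.82), short of 2-fold. SLC7A6, which trades cationic for neutral amino acids and sodium, went from 688 to 1758 counts and was 2.53-fold higher (2.32 to 2.77). SLC7A7, its close relative of kidney, gut and macrophages, had 9 and 30 counts and was 3.31-fold higher (1.53 to 7.92), at 1.77 CPM in the resistant library. SLC7A8, SLC7A9, SLC7A10 and SLC7A13 had at most 3 counts in either library. SLC3A1, the heavy chain that pairs with SLC7A9 in kidney and gut, had 0 and 1 counts, so both partners of that pair were at or under 3 counts.

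The heavy chain that serves SLC7A5, SLC7A6 and SLC7A7 is SLC3A2, which the choice by symbol did not take in. Its counts were 2718 and 6253, and it was 2.28-fold higher (2.18 to 2.39). SLC7A11, the cystine exchanger left out of the group, shares this heavy chain and was 6.02-fold higher (5.78 to 6.28). Per kilobase of transcript, SLC3A2 stood at 72.7 CPM per kb in the parental and 166 CPM per kb in the resistant library. The 6 light chains that pair with it (SLC7A5, SLC7A6, SLC7A7, SLC7A8, SLC7A10 and SLC7A11) summed to 106 and 262 CPM per kb. The light chain sum was 1.46 times the heavy chain level in the parental and 1.58 times in the resistant library. Without SLC7A11 it was 1.23 times and 0.983 times. SLC7A5 made up 78.0% of the light chain sum before and 55.6% after selection, and SLC7A11 15.5% and 37.8%. These shares rest on the longest transcript of each gene, since the transcripts in use are unknown.

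The cationic SLC7 carriers, which bring in arginine, lysine and ornithine without a heavy chain, had 0 of 2 tested members past 2-fold. SLC7A1, the broadly expressed member, had 2714 and 3342 counts and a log2 ratio of 0.29 (0.21 to 0.36). SLC7A2, which is inducible in many tissues, had 1126 and 1662 counts and a log2 ratio of 0.55 (0.44 to 0.66). Both intervals lay above 0. SLC7A3, SLC7A4 and SLC7A14 had at most 1 count in either library.

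Carriers of the SLC36 family, some of them driven by protons, export or take up neutral amino acids such as glycine, alanine and proline. SLC36A1 sits in the lysosomal as well as the plasma membrane. SLC36A1 had 175 and 529 counts and a log2 ratio of 1.58 (1.33 to 1.84), past the rule. SLC36A4, a carrier of proline and tryptophan, had 748 and 1160 counts and was 1.54-fold higher (1.40 to 1.69), short of the rule. SLC36A2 and SLC36A3 had 0 counts in both libraries, which allows up to 0.178 CPM (parental) and 0.177 CPM (resistant).

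None of the 6 tested SLC38 genes, the sodium-coupled neutral amino acid transporters, passed 2-fold in either direction. SLC38A2, which takes in alanine, serine and glutamine and whose RNA is known to be raised by amino acid starvation, had 2815 and 5026 counts and was 1.77-fold higher (1.69 to 1.86). SLC38A1, a glutamine importer of proliferating cells, had 5134 and 6138 counts and a log2 ratio of 0.25 (0.19 to 0.30). SLC38A6 had 131 and 187 counts and a ratio of 0.50. SLC38A7, described as a glutamine exporter of lysosomes, had 152 and 196 counts and a ratio of 0.35. These 4 intervals lay above 0. SLC38A9, the lysosomal arginine sensor that signals to mTORC1, had 161 counts in each library, and its interval ran from -0.34 to 0.31. SLC38A10 had 2467 and 2271 counts and a ratio of -0.13 (-0.21 to -0.05). Among the untested members SLC38A3, the glutamine carrier of liver and kidney, had 0 and 7 counts, and SLC38A4, SLC38A5, SLC38A8 and SLC38A11 had at most 1 count in either library.

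SLC43A1 and SLC43A2 are facilitative carriers of branched-chain and other large neutral amino acids, and neither passed 2-fold. SLC43A1 had 56 and 76 counts, with an interval of the log2 ratio (-0.09 to 0.95) that includes 0. SLC43A2 had 646 and 579 counts and a ratio of -0.17 (-0.33 to -0.01). SLC43A3, grouped with them by sequence but known as a nucleobase carrier, had 2 and 1 counts.

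Of the 3 SLC6 genes, 2 were higher. SLC6A6, the taurine transporter, had 2144 and 5406 counts, or 127 and 318 CPM, and was 2.50-fold higher (2.38 to 2.63). SLC6A9, the glycine transporter, had 332 and 855 counts and was 2.55-fold higher (2.25 to 2.91). SLC6A14, an importer of nearly all neutral and cationic amino acids that is found in lung and gut epithelium, was scarce, at 23 and 13 counts. Its ratio of -0.81 was not distinguishable from equality at this depth (-1.94 to 0.21).

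**Figure D2:**
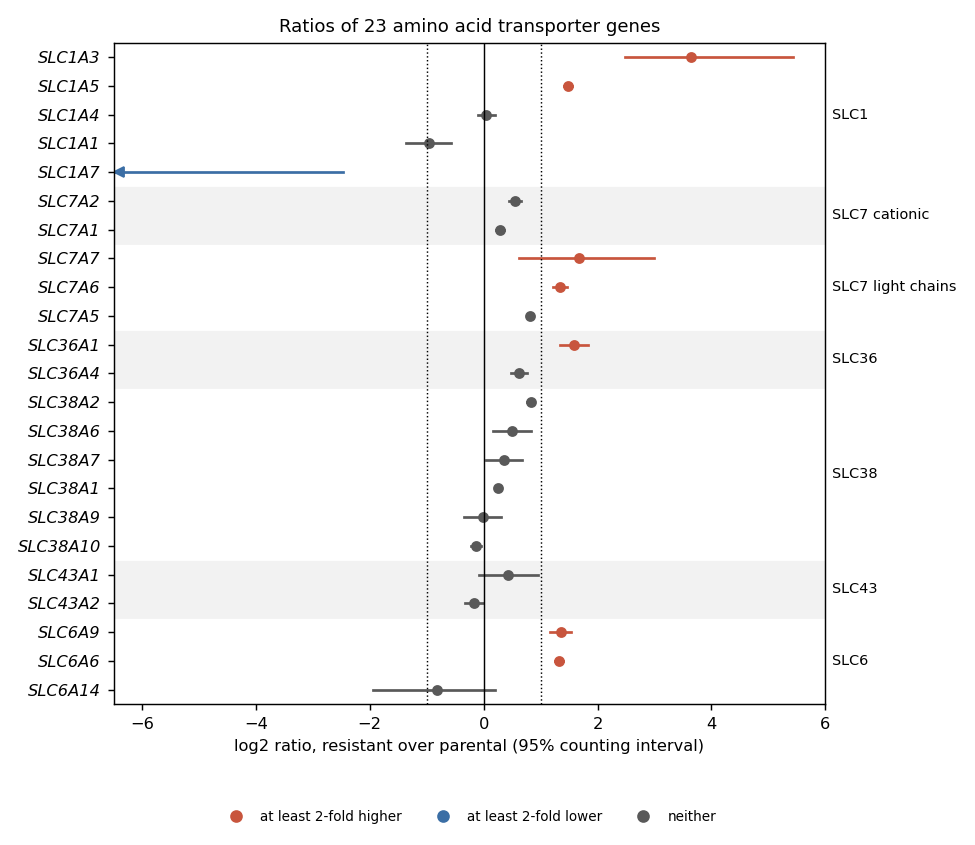
Log2 ratios, resistant over parental, of the 23 tested transporter genes with exact 95% counting intervals and dotted lines at 2-fold in each direction. The intervals of SLC1A3, SLC1A5, SLC6A6, SLC6A9, SLC7A6 and SLC36A1 lie wholly beyond 2-fold, that of SLC7A7 does not, and SLC1A7 is drawn as an arrow because its interval has no lower end.

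Levels of different genes are compared only per length, as CPM per kb of the longest RefSeq-paired transcript. On that scale SLC7A5 ranked first of the 23 in both libraries, at 82.7 and 146 CPM per kb, and SLC1A5 ranked 2 in both, at 49.2 and 137 CPM per kb. In the parental library SLC38A1 (37.8 CPM per kb), SLC38A2 (34.2) and SLC38A10 (34.1) followed. In the resistant library SLC38A2 (60.6), SLC6A6 (48.8) and SLC38A1 (44.8) followed. SLC6A6 thereby moved from rank 7 to rank 4 and SLC7A6 from rank 11 to rank 8, while SLC1A4 moved from rank 8 to rank 12. The level of SLC1A5 lay nearer that of SLC7A5 in the resistant than in the parental library. These ranks depend on the transcript lengths chosen. In the deposited normalized log2 values SLC1A5 (7.223) stood above SLC7A5 (7.206) in the resistant library. In the parental library SLC38A10 (5.231) stood above SLC38A2 (5.147) in those values. No replicates are available to say which neighbours in these orders differ beyond the spread between cultures.

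**Figure D3:**
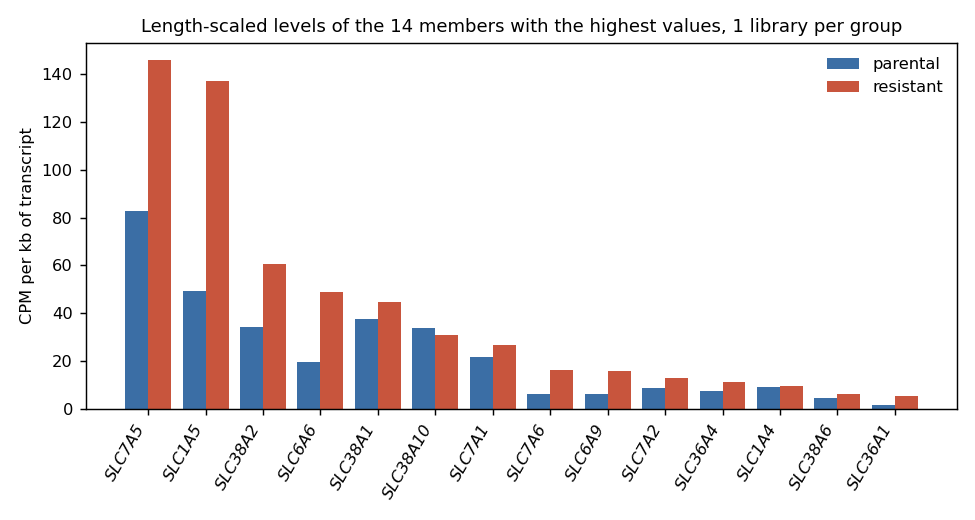
Levels in CPM per kb of transcript of the 14 transporter genes with the highest values, blue bars for the parental and red bars for the resistant library, 1 library each. SLC7A5 and SLC1A5 stand at 146 and 137 CPM per kb in the resistant library, above SLC38A2 at 60.6.

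Counting cannot separate some of these genes from others, because the strand setting and the treatment of reads that match several places are not given in the sources used here. In the GENCODE annotation exons of SLC7A6 overlap SLC7A6OS on the opposite strand, those of SLC6A6 overlap GRIP2 and those of SLC6A9 overlap CCDC24. The log2 ratios of these partners were 0.38 for SLC7A6OS, 0.48 for GRIP2 and -0.33 for CCDC24. The part of shared reads in the transporters' ratios was not tested. SLC7A5 has the pseudogenes SLC7A5P1 and SLC7A5P2 and SLC6A6 has SLC6A6P1, so their counts are uncertain where reads match a copy.

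**Figure D4:**
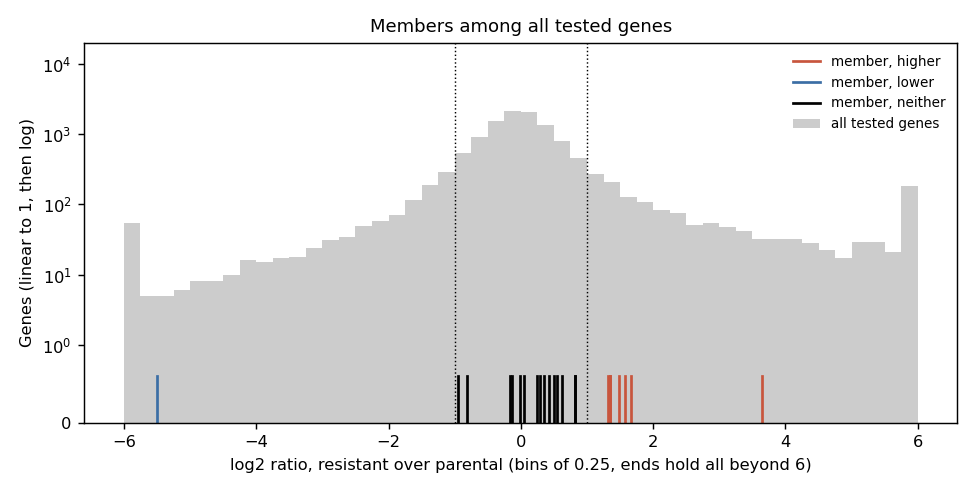
Log2 ratios of the 23 tested transporter genes, drawn as short lines, over a histogram of all 12245 tested genes in bins of 0.25, with dotted lines at 2-fold. The 7 higher genes lie to the right of 1, SLC1A7 lies far to the left, and most of the other lines fall between 0 and 1.

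Amino acid shortage is known to act on many transporter genes through the transcription factor ATF4, which binds C/EBP-ATF response elements, and the cystine exchanger gene is a known target of the oxidative stress factor NRF2, which binds antioxidant response elements. The RefSeq promoter table (GRCh38.p14) matched 32 of the 41 genes, with 52 windows of 250 bases before and 50 bases after an annotated start. Each window was searched on both strands for TGATGNAAN (C/EBP-ATF), TGACNNNGC (antioxidant) and TGANTCA (AP-1). TGATGNAAN was found in windows of 5 of the 32 genes, of which SLC1A5 and SLC1A3 were higher and SLC1A4, SLC7A1 and SLC38A1 passed neither way. It occurs in 3.61% of all 35116 windows and 4.45% of all genes with a window. Of the 52 transporter windows, 5 hold it. The matches are printed along the gene strand with 10 flanking bases on each side and the motif in capitals, because they show that the element is found beside transporters that did and did not pass 2-fold. The match of SLC1A4 is on the opposite strand, so its capitals show the reverse complement.
SLC1A5, chr19:46784893-46784921, minus strand: aggaagtggcTGATGCAAGctgtccaggg
SLC1A3, chr5:36596358-36596386, plus strand: aggaaatgacTGATGCAAAgcagggttaa
SLC1A4, chr2:64989381-64989409, plus strand: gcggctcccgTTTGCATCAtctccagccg
SLC38A1, chr12:46266502-46266530, minus strand: cagacccgaaTGATGAAAAgggatcagct
SLC7A1, chr13:29595663-29595691, minus strand: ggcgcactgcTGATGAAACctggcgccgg

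SLC1A5 and SLC1A3 have 3 annotated starts each, SLC1A4 and SLC38A1 have 2, and the counts do not say which start was in use. The C/EBP-ATF match of SLC1A5 begins 97 bases before its most downstream start. TGACNNNGC was found for 6 of the 32 genes, SLC1A3, SLC1A5, SLC7A1, SLC7A5, SLC7A6 and SLC7A7, and occurs in 13.3% of all windows and 16.1% of all genes with a window. By window, 6 of the 52 hold it. Genes with several starts have more windows, so the share of genes is not a matched comparison. Of the 6 higher transporters with a window, 4 hold it, and for SLC1A3 and SLC7A7 among them the filter fixed the direction. The part of this element in the ratios was not tested. The matches of SLC7A1 and SLC7A5, which passed neither way, and those of SLC1A3 and SLC1A5 are not printed. The pair in the SLC7A6 promoter and the match of its relative SLC7A7 are shown because both genes were higher.
SLC7A6, chr16:68264319-68264347, plus strand: gctcgagcccTGACGAGGCagctgggggc
SLC7A6, chr16:68264487-68264515, plus strand: cggcggcgggTGACGTGGCggggcggggc
SLC7A7, chr14:22819861-22819889, minus strand: cctctgggtcTGACCAGGCagtcccagct
TGANTCA was found for 7 of the 32 genes and for 1 of the 6 higher ones, SLC1A3. It occurs in 7.71% of all windows and 9.37% of all genes with a window. Of the 52 transporter windows, 8 hold it, and overlapping windows of SLC7A8 share a match. The parts of TGATGNAAN and TGANTCA in the ratios were not tested. A match of letters is not a binding site.

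Genes around the transporters, from lists made for this question, had members called in both directions, and their counts are to be read against the 12.1% higher and 8.29% lower of all tested genes. SESN3, BCAT1, GLUD2 and AGMAT below reached 1 CPM only in the resistant library, so the filter fixed their direction. Of 7 tested other plasma membrane and lysosomal transporters, 1, SLC3A2, was higher, and 2 were lower: SLC16A10, a carrier of aromatic amino acids (log2 ratio -1.60), and SLC15A4, a lysosomal histidine and peptide carrier (-1.06). Of 10 tested mitochondrial amino acid carriers, the aspartate-glutamate carrier SLC25A13 was higher (1.28) and SFXN2 lower (-1.75), while the serine carrier SFXN1 was at 0.70. The shares called in these lists, 14.3% higher and 28.6% lower and then 10.0% each way, rest on few genes.

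The machinery that reports amino acids to mTORC1 at the lysosome had 38 tested genes, with 3 higher, 0 lower and a median log2 ratio of 0.02. MTOR itself was at 0.06. SESN3, a stress-induced inhibitor of this signalling, went from 0 to 348 counts and was at least 115-fold higher against 3 counts, with the near end of its exact interval at a log2 ratio of 6.54. KPTN (1.05) and the lysosomal transcription factor gene TFEB (1.08) were the others. The amino acid deprivation response had 13 tested genes, 2 of them higher and 1 lower, and a median ratio of 0.43. ASNS, which makes asparagine from glutamine and aspartate, was 2.05-fold higher (1.92 to 2.20), and JDP2 was at 1.10. DDIT4, another inhibitor of mTORC1, was 3.06-fold lower (2.84 to 3.29), and ATF4 was at -0.06. The 7.89% of the sensing genes called higher lies below the share of all tested genes.

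Enzymes that use the amino acids carried had members past 2-fold in both directions. Of 20 tested glutamine and glutamate enzymes, 5 were higher and 0 lower, although the median was -0.17. GFPT2, which spends glutamine on hexosamines, was 8.90-fold higher (6.93 to 11.6), the glutaminase gene GLS2 went from 27 to 195 counts, and CTPS1 (1.19), which spends glutamine on CTP, and ASNS followed. GLUD2 (1.13), at 16 and 36 counts, has a near-identical copy in GLUD1. PYCR1, the proline synthesis gene, was at 0.82. Of 12 tested genes of branched-chain amino acid breakdown, BCAT1, with 0 and 700 counts, was at least 231-fold higher against 3 counts (near end of the exact interval 7.55 on the log2 scale), DLD (-1.06) and MCCC1 (-1.11) were lower, and the median was -0.14. Arginine and polyamine enzymes had 3 higher and 1 lower of 13 tested genes and a median ratio of 0.06. The arginine synthesis gene ASS1 was 45.4-fold higher (31.8 to 67.0), AGMAT was at 2.91 and the polyamine acetylase gene SAT1 at 1.60, while the spermine synthase gene SMS was lower (-1.28) and ODC1 was at -0.58.

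The 20 cytosolic aminoacyl-tRNA synthetases, which charge tRNAs with the amino acids, had 0 higher and 1 lower, VARS (-1.31), with a median of -0.05 and IARS at 0.21. Of 12 tested genes that govern trafficking and turnover of transporters, 2 were higher and 2 lower. The kinase gene SGK1 (1.84) and the ubiquitin ligase gene NEDD4 (1.68) were higher, and the arrestin-family gene TXNIP was 18.9-fold lower (15.6 to 23.1), with RNF5 at -1.62 and BSG, a chaperone of other carriers, at -0.09. The median was 0.30.

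**Figure D5:**
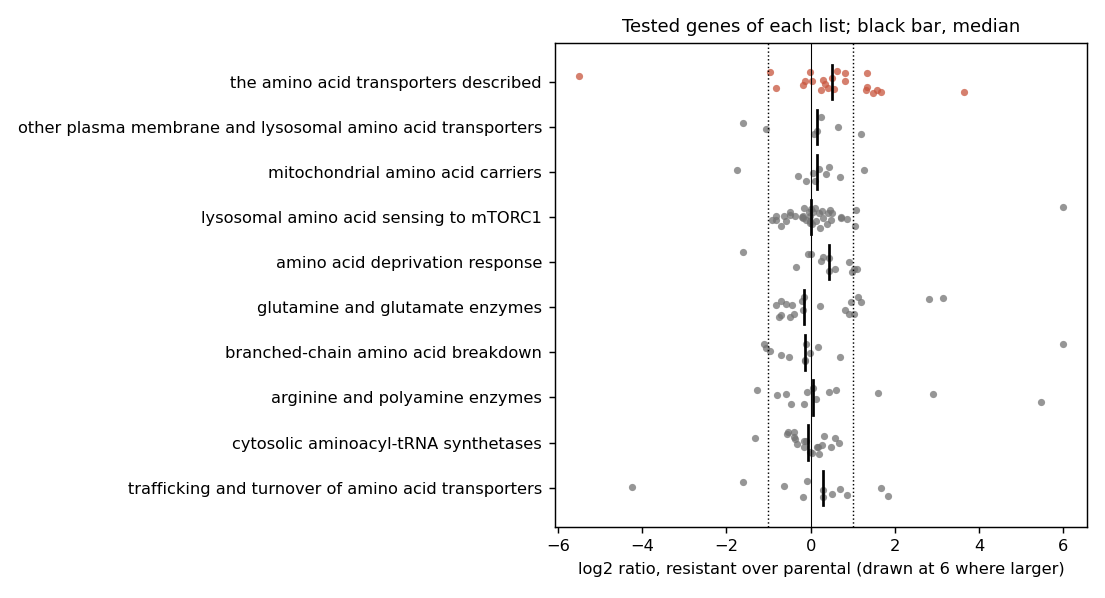
Log2 ratios, resistant over parental, of the tested genes of the transporter group (red) and of 9 related gene lists (grey), with a black bar at each median and dotted lines at 2-fold; points above 6 are drawn at 6. The transporter median of 0.50 is followed by 0.43 for the deprivation response. The synthetases have a median of -0.05 and, apart from VARS at -1.31, run from -0.563 to 0.675.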

How the data were processed

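TruSeq libraries were made from RNA taken with TRIzol, per the labels' protocols. The submitters' processing notes name FastQC and STAR as tools, and GRCh38 and hg19 as builds without a role. The authors deposited raw counts per gene symbol, and normalized log2 values whose method is not stated, per the file headers. For 8345 genes with at least 200 counts in both libraries, 2 to the deposited log2 value, less 1, was divided by the count. This factor differed between the libraries by an SD of 0.0298 (log2), so the deposited values scale with the counts. The length that the factor implies had a Spearman correlation of 0.88 with transcript length over 8159 genes (parental library). In that form the values are logged after adding 1, which shrinks the ratios of scarce genes. Genes under 200 counts were not checked. Counting program, annotation and strand are not given in the sources used here.

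Library sizes were scaled with edgeR 4.0.16 (TMM), R 4.3.3, to 16834058 and 16974207. Intervals are Clopper-Pearson (scipy 1.17.1). The calling script was tested on simulated data. Transcript lengths came from GENCODE 29. Every chosen gene is accounted for. In other lists the genes past 2-fold, at most 4 per direction, and the gene with the highest mean CPM were named. The genes and lists were chosen with earlier results of these data known. With 1 library per group no test was run. Alternatives were total counts, DESeq2 1.42.0 size factors, other count filters, deposited log2 values, stricter call rules and 1 added count.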

Additional observations from a re-analysis of the deposited data

How the results depend on the processing

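Of the 8 transporter calls, all 8 held with total counts, with DESeq2 size factors and with 1 added to each count. Without a filter SLC38A3 was called higher as well. SLC1A3, SLC7A7 and SLC1A7 were lost when either library had to reach 5 CPM, with a mean of at least 5 CPM (added after the data were seen) and with the deposited log2 values, which left 5 higher and 0 lower each time. The first 2 of these settings did not test them, and on the deposited scale the 3 genes differed by 0.88, 0.53 and -0.64, in the same directions as in the counts. The 1 added on that scale weighs most on scarce genes. When the whole interval had to lie beyond 2-fold, SLC7A7 was lost. At 4-fold 1 transporter was higher, SLC1A3, and 1 lower, SLC1A7. The 5 calls of SLC1A5, SLC6A6, SLC6A9, SLC7A6 and SLC36A1 held under each of these settings other than 4-fold. Over all tested genes, 1480 higher and 1015 lower became 926 and 591 with the deposited log2 values, 774 and 359 at 4-fold, 839 and 665 with a mean of at least 5 CPM, and 1097 and 655 when the whole interval had to lie beyond 2-fold. No paired analysis was possible because each group had 1 library. Depth limits the scarce members: at under 100 counts in both libraries, SLC6A14 and SLC43A1 could not be told from equality.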

Other observations

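SLC1A5, SLC36A1 and SLC36A4 lay among genes that were often higher. Of the 5 tested genes on each side in RefSeq order, 4 of 10 were called higher for each of the 3, a count reached around 6.05% of 12004 tested genes with 10 such neighbours. Around SLC1A5 on chromosome 19 the median neighbour log2 ratio was 0.84, with PRKD2 (1.04), TMEM160 (1.17), NPAS1 (3.61) and PNMAL1 (8.94) called, and no neighbour ratio was below 0. Around SLC36A4 on chromosome 11 the median was 0.93, above that of SLC36A4 itself at 0.62, and all 10 neighbours had ratios above 0. Around SLC36A1 on chromosome 5 the called neighbours, GPX3, TNIP1, ANXA6 and CCDC69, all lay on one side, and the median was 0.59.

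SLC1A7 lay on chromosome 1 among genes with ratios below 0. All 10 neighbours were below 0, with a median of -0.53, and ECHDC2 (-1.23), SCP2 (-1.04) and CPT2 (-1.11) were called lower, where at least 3 of 10 lower neighbours were found around 6.87% of tested genes. SLC38A1 and SLC38A2 also had 3 of 10 neighbours called lower, but their own ratios were 0.25 and 0.82. Around SLC1A3, SLC6A6, SLC6A9, SLC7A6 and SLC7A7 the neighbour medians were 0.23, 0.12, -0.35, -0.30 and 0.18. At most 1 neighbour was called higher for each of them. These genes were singled out after their values were seen, and the part of the neighbourhood in the transporters' ratios was not tested.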
